A study of Mus musculus with 10 samples.

Results

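Rab proteins are small GTPases that sit on the surface of membrane compartments and, in their GTP-bound form, recruit the tethers, motors and kinases that move and fuse vesicles. Each Rab marks a compartment or a route, so that some are needed in nearly every cell and others serve specialized organelles. In pigment cells, Rab32 and Rab38 direct the delivery of tyrosinase and related enzymes to maturing melanosomes, and Rab27a ties the finished melanosome to actin filaments.

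The Rab genes were taken as all genes whose symbol in the platform's probe annotation was Rab followed by a number and, at most, a single letter. By this rule 50 Rab genes, carried by 95 probe-sets, were found among the 12393 genes named on the Affymetrix MOE430A array. Signals were available for 5 cell populations of backskin, each on 2 arrays, from 4-day-old Lef1-RFP/K14-H2BGFP mice, and both transgenes were carried by every group. The populations were hair follicle matrix (Mx, GFP-low and RFP-), outer root sheath (ORS, GFP-high and RFP-), dermal fraction (DF, negative for both reporters), dermal papilla (DP, RFP-high and GFP-) and melanocytes (Mc, RFP-high, GFP- and CD117+). The K14 promoter drives the green reporter in skin epithelium and a human Lef1 promoter fragment drives the red one, which is strong in both DP and Mc, so that DP was separated from Mc by the removal of cells carrying CD117. Before both DP and DF were sorted, cells carrying CD117, CD34 (endothelial) or CD45 (immune) were depleted. Backskins of several animals were pooled in a preparation, and DF is a mixture of the remaining dermal cells.

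Where a gene had several probe-sets, the brightest on the log2 scale stood for it. Signals are in the arbitrary linear units of the array and were compared between populations for the same probe-set, never between probe-sets. A gene was tested where its signal reached 200 on both arrays of at least 1 population. Of the 50 Rab genes, 33 (66.0%) were tested, against 42.4% of all genes on the array. The 17 that were not tested included all 5 genes of regulated secretion (Rab3a, Rab3b, Rab3c, Rab3d and Rab37) and 3 of the 5 genes of the melanosome group (Rab27a, Rab27b and Rab32). Differences are given on the scale of log2(signal + 50), with adjusted p-values from limma. Because 50 is added to each signal, the differences of dim genes are understated.

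The markers of each sorted population were checked before the Rab genes were read. All 11 melanocyte markers on the array were higher in Mc than in the mean of the other 4 populations, and their summed signal was 43195 and 45735 in the Mc arrays. The same sum was 29499 and 18202 in DP and 14584 and 4561 in DF, against 615 to 1070 in Mx and ORS. The summed signal of 9 matrix and hair shaft markers was 26959 and 25835 in Mx, and in DF it was 1459 in replicate 1 and 7727 in replicate 2. It was 4183 and 6493 in ORS and 3118 and 3555 in DP. DF also held signal of other dermal cells, with summed signals of 19772 and 21079 for 6 pericyte and smooth muscle markers, 3718 and 2668 for 7 endothelial markers, 2118 and 1560 for 2 Schwann cell markers and 3494 and 4294 for 2 of red cell precursors. The pericyte and smooth muscle sum was 3135 and 5379 in DP, and 4039 and 5374 in ORS. The part of these signals in the Rab differences of ORS, DF and DP was not tested. The 8 mast cell and leukocyte markers summed to between 217 and 392 on every array, and none of them was tested. No marker was listed at 0. In bulk populations, fewer cells of a type and less RNA per cell cannot be told apart.

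Rab38 was the member set apart in Mc. Its signal was 184 and 183 in Mx, 247 and 255 in ORS, 369.9 and 214 in DF, 1054 and 527 in DP, and 2799 and 2975 in Mc. Both Mc arrays lay above all other arrays, and DP came next, ahead of DF, ORS and Mx. Against the mean of the other 4 populations the log2 difference was 2.99 ± 0.22 (standard error), a 7.94-fold difference with a limma adjusted p of 4.9e-07. Against DP alone it was 1.88 ± 0.28 (3.68-fold, adjusted p = 0.000232), and it ran from 1.41 to 2.35 when each array was left out in turn. DP was also above DF (adjusted p = 0.00678). Neighbours below DP did not differ beyond their spread, with an adjusted p of 0.727 for DF against ORS and 0.406 for ORS against Mx.

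**Figure D1:**
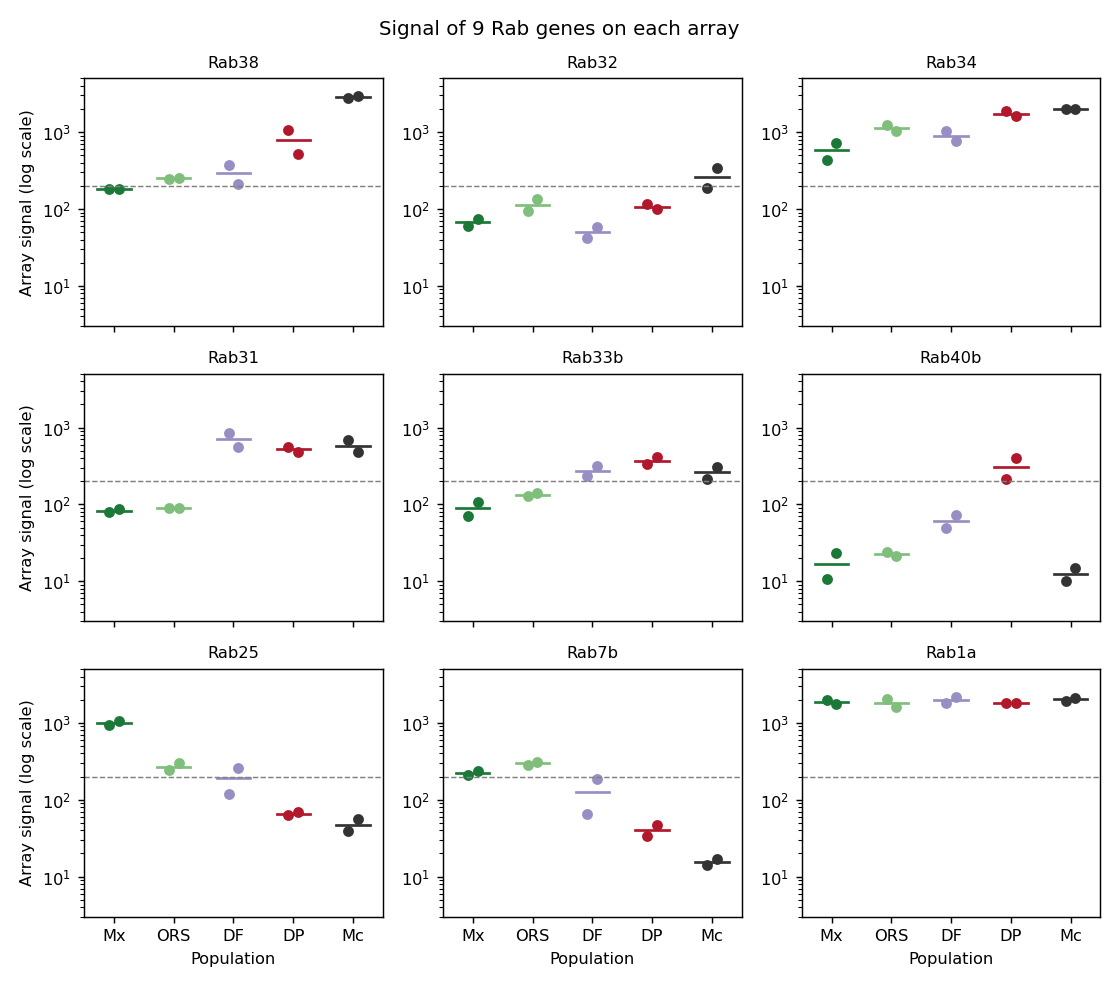
Array signal (log scale, arbitrary units) of 9 Rab genes in the 5 populations, with a point for each of the 2 arrays, a bar at their mean and a dashed line at a signal of 200. Rab38 was at 2799 and 2975 in Mc, Rab25 and Rab7b were highest in the 2 epithelial populations, Rab40b was highest in DP, and Rab1a lay between 1628 and 2165 on all 10 arrays.

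Pigment cell genes were also measured in DP and DF, to unequal extents. In DP, Rab38 stood at 36.5% of its Mc mean in replicate 1 and at 18.3% in replicate 2. Tyrosinase (Tyr), the first enzyme of melanin synthesis, stood at 46.4% and 23.9% on the same arrays, and the melanocortin receptor gene Mc1r at 14.5% and 6.83%. Sox10, a transcription factor of neural crest cells, was at 28.8% and 27.8%. Over the 11 melanocyte markers the ratio of DP replicate 1 to replicate 2 ran from 1.04 for Sox10 to 2.29 for Gpr143, and it was 2.00 for Rab38. In DF, Rab38 was at 12.8% and 7.41%, a ratio of 1.73. That ratio was 1.20 for Sox10 and ran from 2.28 (Kit) to 6.19 (Mc1r) over the other markers. Rab38 thus lay below every marker but Sox10. Kit, which encodes CD117, the surface protein used for the depletion, was at 22.0% and 13.3% of its Mc mean in DP. The part of pigment cell RNA in the Rab38 signal of DP and DF was not tested. In Mx and ORS, where Tyr was at 1.00% or less, Rab38 still gave 6.34% to 8.84% of its Mc mean.

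Other pigment cell genes did not fall as far in DP. Dct, which acts after Tyr in melanin synthesis, was at 118% and 78.9% of its Mc mean in DP, Pmel, the protein of the melanosome fibrils, at 104% and 66.0%, and the enzyme gene Tyrp1 at 94.6% and 56.5%. For these genes Mc did not pass the test against DP, with adjusted p-values of 0.943, 0.715 and 0.542, whereas Tyr, Kit and Mc1r passed it (0.0213, 8.81e-05 and 1.01e-05).

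**Figure D2:**
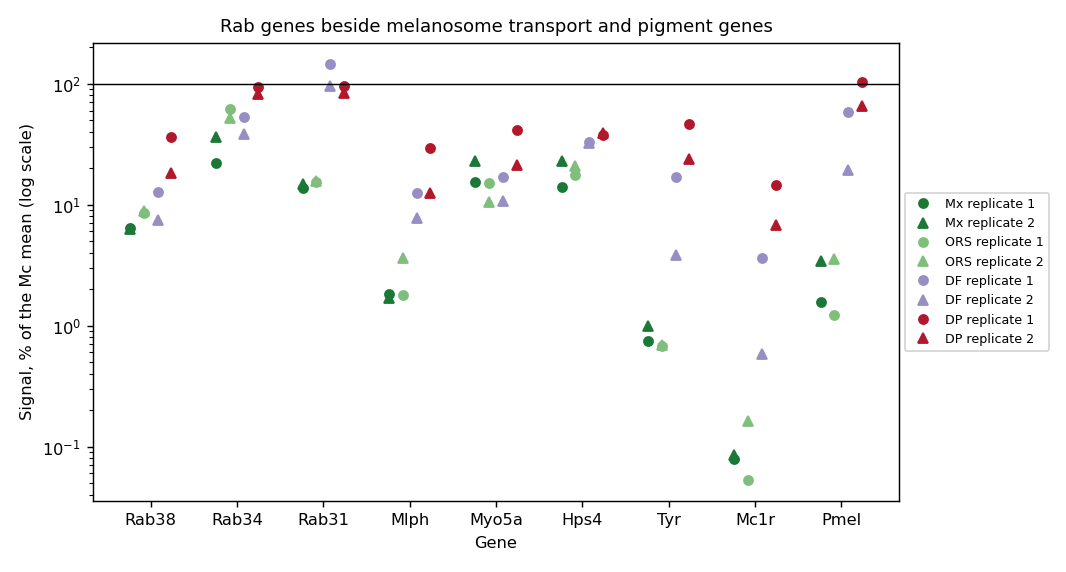
Signal on each array of Mx, ORS, DF and DP as a percentage of the mean of the 2 Mc arrays (log scale; line at 100%), for 3 Rab genes and for 6 genes of melanosome transport and pigment. Rab38 in DP, at 36.5% and 18.3%, lay near Tyr at 46.4% and 23.9%, whereas Rab31 was at 95.0% and 83.4% there.

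The other melanosome Rabs gave weaker signals. Rab32, the closest relative of Rab38, was at 185 and 338 in Mc and between 41.7 and 133 on the other 8 arrays. The Mc arrays were the highest, but replicate 1 did not reach 200 and the gene was left untested. With no filter on signal, the log2 difference of Rab32 in Mc was 1.20 ± 0.19 (adjusted p = 0.00321).

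The probe-sets of Rab27a disagreed. The one that represented the gene lay between 27.0 and 68.3 on all arrays and did not set Mc apart. The other 2 gave 71.6 and 80.3, and 89.5 and 115, in Mc, and from 2.1 to 23.5 on the arrays of the other populations. With no filter, their log2 differences in Mc were 1.11 and 1.24 (adjusted p = 0.000189 and 0.000194), and that of the representing probe-set was 0.09 (adjusted p = 0.604). All of these signals were below 200.

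Rab27b, the paralog of Rab27a that serves exocytosis in other cells, ran the other way. It was at 60.4 and 101 in Mx and 103 and 104 in ORS, and between 10.4 and 30.3 in DF, DP and Mc, so the epithelial arrays did not overlap with the rest. Rab29, a further relative of Rab32 and Rab38, reached 200 on both arrays only in DF and Mc. It was thus tested because of populations in which it was high. Its signal was 219.5 and 239.7 in Mc and was highest in DF, at 246 and 308 (log2 difference of 0.49 ± 0.16, adjusted p = 0.038). That call was lost on rescaling, on quantile normalization, with no filter and without ORS replicate 1, DP replicate 1 or any array of DF or Mc.

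By a rule of size, a gene was called melanocyte-restricted where both Mc signals were at least 200 and the Mc mean was at least 2-fold above each of the other 4 populations. Rab38 alone met it, 1 of 33 tested Rab genes, against 2.67% of all tested genes. Rab38 lay 1.88 above the next population on the log2 scale, and the nearest members outside were Rab32 (0.90 above the next, with a single Mc array under 200) and Rab20, an early endosome Rab (0.70 above the next, with Mc signals of 139.7 and 46.4). The rule uses the signals themselves, so that this is a description.

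Across all tested members, 6 Rab genes were higher in Mc than in the mean of the other populations (18.2%, against 16.1% of all tested genes) and 8 were lower (24.2%, against 29.4%). The shares lay near those of all genes. The median log2 difference was 0.07 over the Rab genes and -0.14 over all tested genes, and the latter moved to -0.03 when the arrays were rescaled over all probe-sets or quantile normalized. Under those scalings 9 Rab genes were higher in both, and 4 and 5 were lower, respectively. With no filter on signal, 10 of the 50 members were higher (20.0%, against 8.93% of all genes) and 12 were lower (24.0%, against 16.8%).

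**Figure D3:**
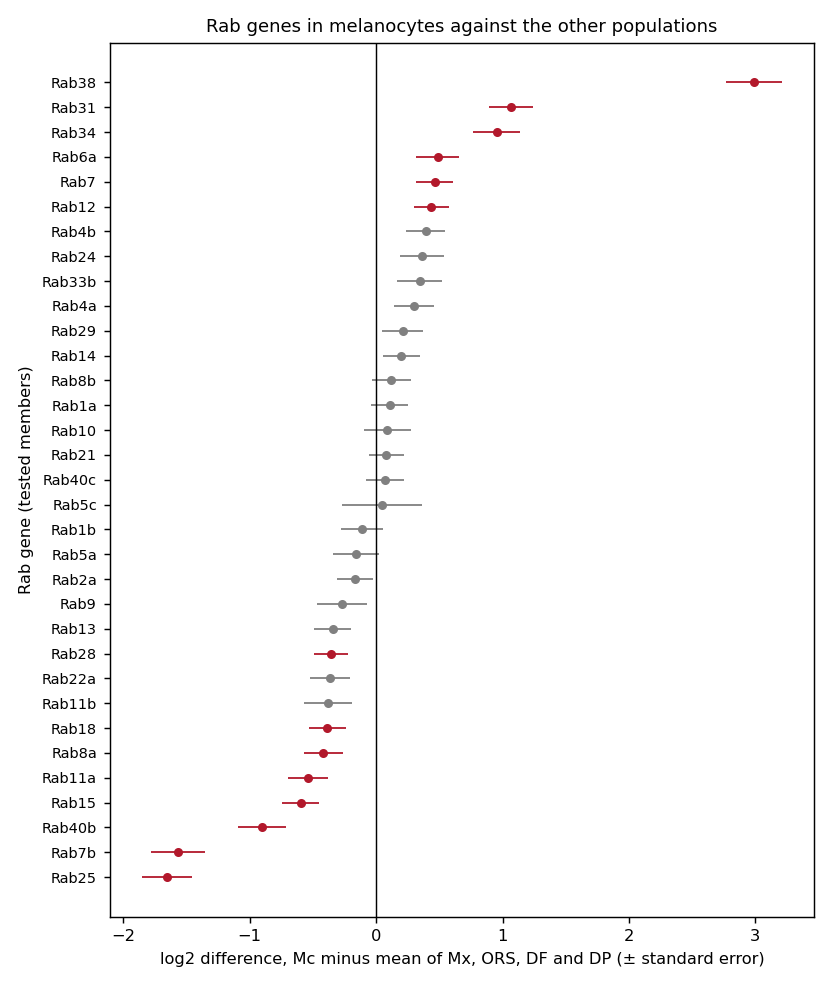
Log2 difference between Mc and the mean of Mx, ORS, DF and DP for the 33 tested Rab genes, with the standard error of the fit; red marks an adjusted p under 0.05. Rab38 stood at 2.99, Rab31 and Rab34 followed at 1.06 and 0.95, and Rab25 and Rab7b were lowest at -1.66 and -1.57.

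Among the tested genes, the largest rises in Mc after Rab38 were those of 2 Golgi and endosome Rabs that did not pass the test between Mc and DP. Rab31, which acts between the trans-Golgi network and endosomes, was at 682 and 481 in Mc, 857 and 561 in DF, 552 and 485 in DP, and 79.7 to 90.9 in Mx and ORS. The dermal and Mc arrays overlapped one another and lay far above the epithelial ones. Its log2 difference in Mc was 1.06 ± 0.18 (adjusted p = 0.000298), and against DP it was 0.14 ± 0.22 (adjusted p = 0.693). The second probe-set of Rab31 lay between 30.3 and 127.5 on all arrays. It did not pass in Mc (log2 difference of 0.26 with no filter, adjusted p = 0.257).

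Rab34, a Golgi Rab with roles in lysosome position and cilium formation, was at 1983 and 1977 in Mc, 1874 and 1618 in DP, 1041 and 765 in DF, 1227 and 1024 in ORS, and 435 and 725 in Mx. Mc and DP were the highest, Mx the lowest, and ORS overlapped with DF. The log2 difference in Mc was 0.95 ± 0.19 (adjusted p = 0.00115), and its second tested probe-set gave 0.96 (adjusted p = 7.46e-05). Mc and DP did not differ beyond the spread (0.18 ± 0.24, adjusted p = 0.615).

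The remaining rises among tested genes were under 1.5-fold. With no filter, Rab32, Rab20, Rab5b and Rab43 passed in Mc at 2.30, 1.77, 1.74 and 1.71-fold. The second probe-set of Rab43 did not pass (log2 difference of -0.015, adjusted p = 0.948). Rab6a, which returns cargo through the Golgi, was at 842 and 753 in Mc and between 383 and 694 elsewhere (0.49 ± 0.17, adjusted p = 0.0357). Rab7, which controls fusion of late endosomes with lysosomes, was at 1405 and 1401 in Mc and between 778 and 1223 elsewhere (0.46 ± 0.14, adjusted p = 0.0196). For both genes the Mc arrays lay above all others. Rab12, which acts in lysosomal degradation and autophagy, was at 278 and 289 in Mc but at 327 and 259 in DP and 239 and 270 in DF, while Mx was at 119 and 102 and ORS at 171 and 173 (0.44 ± 0.14, adjusted p = 0.0237). Its difference in Mc was thus from the epithelium, with an adjusted p of 0.915 against DP and 0.608 against DF. The calls of Rab6a, Rab7 and Rab12 were each lost when either Mc array was left out, and that of Rab6a also without ORS replicate 2, DF replicate 1 or DP replicate 1.

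The 2 largest falls in Mc were in Rabs with their highest mean in an epithelial population. Rab25, an epithelial relative of Rab11 in apical recycling, was at 932 and 1045 in Mx, 245 and 296 in ORS, 119.5 and 259 in DF, 62.5 and 68.3 in DP, and 39.0 and 55.6 in Mc. Mx was apart from all others, and the Mc arrays were below all others. Rab25 was 6.13-fold higher in Mx than in the mean of the other populations (log2 2.62 ± 0.20, adjusted p = 6.84e-07) and 3.25-fold higher in Mx than in ORS (adjusted p = 0.000326).

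Rab7b, which acts between late endosomes and the trans-Golgi network, was at 286 and 314 in ORS, 212 and 237 in Mx, 65.6 and 184 in DF, 33.7 and 46.4 in DP, and 14.0 and 17.0 in Mc. ORS and Mx were the highest and did not differ beyond their spread (adjusted p = 0.399), and Mc was the lowest. The log2 difference was -1.57 ± 0.21 in Mc (adjusted p = 5.67e-05) and 1.46 ± 0.21 in ORS (adjusted p = 0.000153). In DF, replicate 2 exceeded replicate 1 by 2.17-fold for Rab25 and 2.80-fold for Rab7b. The matrix markers were also higher on that array, with Krt35 5.88-fold and Krt25 3.96-fold above replicate 1. So were the basal keratins, with Krt5 2.78-fold and Krt14 2.29-fold above replicate 1. The summed signal of 8 outer root sheath and basal keratinocyte markers in DF was 1958 in replicate 1 and 3007 in replicate 2. The part of these epithelial signals in the DF values was not tested.

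Rab11a, the Rab of the recycling endosome, was at 1106 and 745 in Mx and 993 and 855 in DF, and between 414 and 457 on the 6 arrays of ORS, DP and Mc. The 2 sets of arrays did not overlap. The log2 difference was 0.73 ± 0.16 in Mx (adjusted p = 0.0019), 0.75 ± 0.16 in DF (adjusted p = 0.00292) and -0.54 ± 0.16 in Mc (adjusted p = 0.0153), and the call in Mc was lost without either Mc array (adjusted p = 0.117 and 0.085) and on rescaling. A second tested probe-set of Rab11a disagreed. It was at 157 and 168 in Mx, 155 and 116 in ORS, 234 and 219 in DF, 101 and 175 in DP, and 115 and 119.9 in Mc, so that only DF was apart, and it passed neither in Mx (0.09, adjusted p = 0.666) nor in Mc (-0.34, adjusted p = 0.121).

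The other falls in Mc were smaller. Rab15, of early and recycling endosomes, was at 150.3 and 189 in Mc and between 249 and 374 elsewhere (-0.60 ± 0.15, adjusted p = 0.0052, and 0.105 without Mc replicate 1). Rab18, of the ER and lipid droplets, Rab8a, of transport from the Golgi to the surface and the cilium, and Rab28, a Rab of cilia, passed narrowly, with log2 differences of -0.39, -0.42 and -0.36 and adjusted p-values of 0.0493, 0.0393 and 0.0467. Each was lost when ORS replicate 1, DF replicate 1, DP replicate 2 or either Mc array was left out, Rab18 and Rab28 also without DF replicate 2, Rab28 without DP replicate 1 and Rab8a without ORS replicate 2 (adjusted p from 0.0563 to 0.234), and all 3 were lost on rescaling. Rab28, at 251 and 263 in Mc, lay above Mx, at 244 and 236, and far below DP, at 568 and 551. Rab8a, at 437 and 445 in Mc, was at 414 and 532 in DP. With no filter, the second probe-sets of Rab18 and Rab28 did not pass in Mc (adjusted p = 0.69 and 0.844). Rab40b is described with DP, since its difference in Mc rested on that population (-0.90 ± 0.19, adjusted p = 0.00171, but -0.38 ± 0.19 and 0.127 against Mx, ORS and DF alone).

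Epithelium was then compared with mesenchyme. Against the mean of DF and DP, 2 Rab genes, Rab25 and Rab7b, were higher in the epithelium of Mx and ORS (6.06%, against 26.3% of all tested genes) and 15 were lower (45.5%, against 34.4%). In either direction 51.5% of the Rab genes and 60.7% of all tested genes passed. The median log2 difference was -0.29 over the Rab genes and -0.08 over all tested genes. The latter moved to 0.008 on rescaling over all probe-sets and to -0.002 on quantile normalization. Rab14 and Rab2a were no longer lower on rescaling, nor were Rab29 and Rab4b on quantile normalization. Under the latter, Rab7 and Rab18 joined the lower genes and Rab15 the higher ones. Of the 33 tested Rab genes, 15 had their lowest mean in Mx and none had it in DP, and 12 had their highest mean in DP. The shares were 45.5%, 0% and 36.4%, against 34.0%, 16.2% and 19.9% of all tested genes. This ranking used the signals as deposited, without rescaling.

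Rab31 gave the largest fall in epithelium, with the signals above (-2.25 ± 0.16, 4.75-fold, adjusted p = 1.04e-07). Rab33b, of the Golgi and of autophagosome formation, was at 70.3 and 109 in Mx, 128 and 139 in ORS, 236 and 313 in DF, 331 and 411 in DP, and 213 and 308 in Mc. Every dermal and Mc array lay above every epithelial one (-1.21 ± 0.16 for epithelium, adjusted p = 2.76e-05). Rab4a, which returns receptors quickly from early endosomes, was at 57.2 to 95.1 on the epithelial arrays and 165 to 256 on those of DF and DP (-1.10 ± 0.14, adjusted p = 2.3e-05). Rab13, which carries junction proteins to the surface, was at 84.5 to 115 and 211 to 317 on the same arrays, and at 121 and 109 in Mc (-1.02 ± 0.13, adjusted p = 2.54e-05). Mc therefore lay with the dermal arrays for Rab33b and with the epithelial ones for Rab13. Rab25 and Rab7b reached 200 on both arrays only in Mx and ORS, and Rab13 only in DF and DP. Rab4a and Rab40b did so only in DP, Rab4b only in DP and Mc, and Rab29 only in DF and Mc. Rab12, Rab31 and Rab33b did so only in DF, DP and Mc. These genes were thus tested because of populations in which they were high. All of them except Rab25 and Rab7b are among the 15 counted as lower in epithelium.

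In Mx, 4 Rab genes, Rab11a, Rab15, Rab25 and Rab7b, were higher than in the mean of the other populations (12.1%, against 22.2% of all tested genes) and 13 were lower (39.4%, against 34.8%). In ORS, Rab7b was the 1 gene higher (3.03%, against 17.9%) and 8 were lower (24.2%, against 16.4%). In DF, 8 were higher (24.2%, against 21.1%), and Rab38 was the 1 gene lower (3.03%, against 8.99%). The DF split depended on scale, since 4 genes were higher and 4 lower both on rescaling over all probe-sets and on quantile normalization, which moved the median of all genes in DF from 0.02 to -0.11 and -0.09. In Mx the same scalings moved that median from -0.14 to -0.04 and -0.03.

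**Figure D4:**
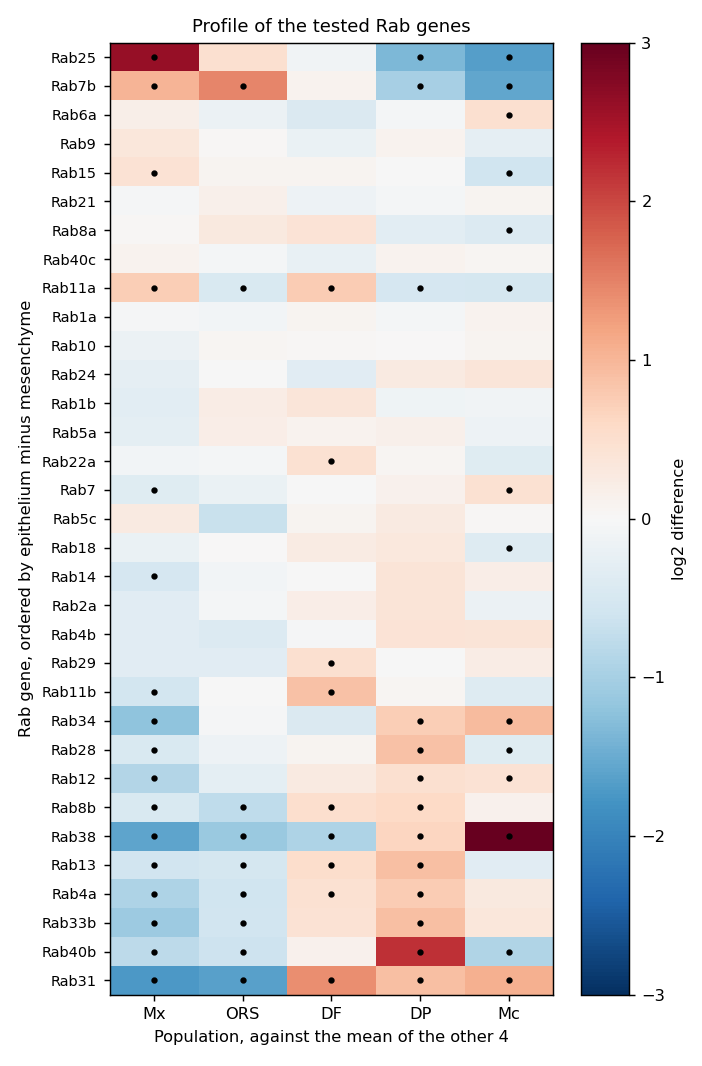
Log2 difference of each tested Rab gene in each population against the mean of the other 4 (colour scale from -3 to 3), with genes ordered by the difference of epithelium and mesenchyme; dots mark an adjusted p under 0.05. Rab25 and Rab7b, at the top, were high in Mx or ORS and low in DP and Mc, and Rab40b, near the bottom, was raised in DP at 2.18.

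In DP, 10 Rab genes were higher (30.3%, against 21.4%) and 3, Rab11a, Rab25 and Rab7b, were lower (9.09%, against 16.5%). Rab40b, a SOCS-box Rab that takes part in a ubiquitin ligase, had the largest rise. It was at 216 and 397 in DP, 49.2 and 72.8 in DF, and 23.8 or less on the 6 arrays of Mx, ORS and Mc. DP was apart from all others and DF was in between. Only the DP arrays reached 200, so that Rab40b was tested because of the population in which it was high. The log2 difference in DP was 2.18 ± 0.19 (4.54-fold, adjusted p = 1.77e-06), and DP was 3.12-fold above DF (adjusted p = 0.000293). Its second probe-set was at 13.4 or less on every array and did not pass in DP (log2 difference of 0.20 with no filter, adjusted p = 0.0887).

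Rab28 was also highest in DP, at 568 and 551, against 236 to 347 on the other arrays (0.88 ± 0.13, adjusted p = 0.000238). Its second probe-set, between 46.2 and 148.6, did not pass in DP (0.48 with no filter, adjusted p = 0.0698). Rab3b, which serves regulated secretion, was at 70.7 and 89.9 in DP and between 3.2 and 8.2 elsewhere, a separation below the signal of 200 (1.24 ± 0.08 with no filter, adjusted p = 6.56e-05). Rab38 was 1 of the 10, with a DP difference of 0.64 ± 0.22 (adjusted p = 0.0398) that was lost on rescaling, on quantile normalization, with a pseudocount of 1, with no filter and without any single array other than DF replicate 1 or DP replicate 2. Between Mc and DP, the 2 populations with strong RFP, Rab38 was the 1 Rab gene higher in Mc (3.03%, against 10.6%), and Rab13, Rab18, Rab28 and Rab40b were the 4 lower (12.1%, against 20.7%).

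At the other end, 19 Rab genes reached 200 on every one of the 10 arrays, and 14 of them were even, with every pair of population means under 2-fold apart (73.7%, against 69.3% of all genes at 200 on every array). These were Rab1a, Rab1b, Rab2a, Rab5a, Rab6a, Rab7, Rab8a, Rab9, Rab10, Rab14, Rab18, Rab21, Rab24 and Rab40c. By group, 5 serve the ER and Golgi, 3 the late endosome, lysosome and autophagy, 2 the early endosome and 2 transport from the Golgi to the surface. Even members still differed between populations in places, since Rab7, Rab8a and Rab14 passed the test for any difference among the 5 populations (adjusted p = 0.0407, 0.0255 and 0.0328). Over all members 20 passed that test (60.6%, against 70.2% of all tested genes).

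The flattest was Rab1a, of transport from the ER to the Golgi. Its signal lay between 1628 and 2165, and its population means spanned 0.15 on the log2 scale. Rab10, of surface delivery, lay between 684 and 1230 with a span of 0.22, and its extremes were both in Mx. Rab21, which takes up integrins, lay between 249 and 353 (span 0.25), Rab40c, a relative of Rab40b, between 239.8 and 378 (0.27), and Rab5a, the Rab of early endosome fusion, between 370.0 and 673 (0.39). For none of these 5 genes did a population lie wholly above or below the other 4. Rab14, of endosomes and the trans-Golgi network, had population means that spanned 0.72, lowest in Mx and highest in DP. Its single arrays lay farther apart, from 794 in Mx to 1611 in DP. The even genes nearest to the limit were Rab6a, with a span of 0.73, and Rab14, and those just outside were Rab11a (1.03), Rab28 (1.07), Rab8b (1.08) and Rab11b (1.13), with Rab34 farther out at 1.73.

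Close relatives fell on different sides of these limits. Rab40c was even and Rab40b was highest in DP, and Rab7 was even and Rab7b was highest in ORS and Mx.

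Rab proteins are switched and read by other proteins, and 73 such genes from 4 lists were on the array, of which 31 were tested. Of these, 11 were higher in Mc than in the mean of the other populations and 2 were lower. Another list, of genes for the biogenesis of lysosome-related organelles, had 18 genes on the array. Over the 5 lists 43 genes were tested, 18 were higher and 2 lower, with a median log2 difference of 0.27 against -0.14 over all tested genes. Percentages of all tested genes called were 16.1% and 29.4%, as above. Some of the genes higher in Mc, Mlph, Rabgef1, Rab3ip and Lyst among them, passed the signal filter in Mc alone. Those genes were thus tested because of the population in which they were high. The lists were also chosen with earlier results of these data known, so the comparison with all tested genes is a description.

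The rises lay in 3 of the 5 lists. Among exchange factors, which load Rabs with GTP, 4 of 6 were higher. Hps4, part of the complex that activates Rab32 and Rab38, was at 779 and 791 in Mc, 295 and 309 in DP, 261 and 256 in DF, and 110 to 181 in Mx and ORS (1.72 ± 0.16, adjusted p = 2.35e-06). The others were Rabgef1, which acts on Rab5 (0.89), Dennd5a (0.82) and Rab3ip, which acts on Rab8 (0.76). Dennd5a, at 829 and 911 in Mc, was at 957 and 797 in DP and 751 and 885 in DF, and Rab3ip, at 215 and 201 in Mc, was at 218 and 172 in Mx.

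Among effectors, which bind the active Rab, 7 of 14 were higher and 2 lower. Mlph, the link between Rab27a and myosin, was at 1203 and 1565 in Mc, 404 and 175 in DP, 174 and 107 in DF, and 23.5 to 50.4 in Mx and ORS (3.34 ± 0.24, adjusted p = 3.47e-07). Myo5a, the myosin of that complex, was at 715 and 1361 in Mc and 109 to 426 elsewhere (2.15 ± 0.26, adjusted p = 2.38e-05). Next were Osbpl1a, an effector of Rab7 (1.64), and Sytl2, of Rab27 (1.62). The 2 lower were Sytl1, a Rab27 effector found at 141 to 368 on the Mx and ORS arrays and at 20.4 or less elsewhere (-1.26), and Bicd2, an adaptor between Rab6 and dynein (-0.82).

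In the list of lysosome-related organelle biogenesis, 7 of 12 were higher and none was lower. Bloc1s5 was at 989 and 1121 in Mc and 152 to 322 elsewhere (2.11 ± 0.14, adjusted p = 2.57e-07), and Hps3 (1.62), Dtnbp1 (1.39) and Lyst (1.00), further genes of these organelles, followed. None of the 6 tested GTPase-activating genes, which switch Rabs off, and none of the 5 of prenylation and recycling, which attach Rabs to membranes, passed the test. Their median log2 differences were -0.09 and 0.15.

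**Figure D5:**
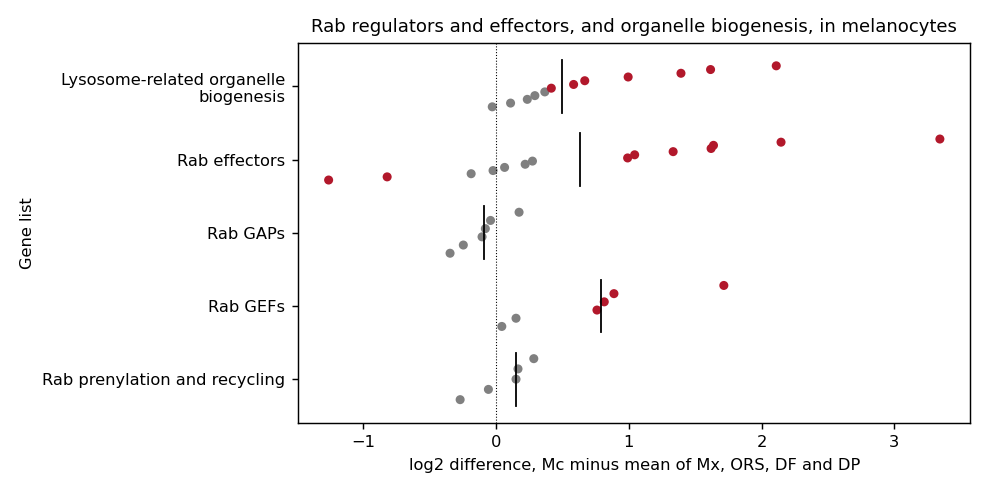
Log2 difference between Mc and the mean of the other 4 populations for the 43 tested genes of 4 lists of Rab regulators and effectors and 1 of lysosome-related organelle biogenesis, a point for each gene; red marks an adjusted p under 0.05 and the bar the median of the list. Mlph stood at 3.34, Myo5a at 2.15 and Bloc1s5 at 2.11, and the genes of GTPase activation lay between -0.35 and 0.17.

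Promoter sequence was read for the Rab genes from RefSeq windows of GRCm38.p6, in which 42 of the 50 genes matched, on 54 windows. Rab38, Rab2a, Rab4a, Rab7b, Rab18, Rab27b, Rab30 and Rab37 were not searched. The 250 bases before each annotated start were searched on both strands for CATGTG and CACGTG, hexamers bound by basic helix-loop-helix factors, Mitf of melanocytes among them; CACGTG reads the same on both strands. CATGTG was found in 6 windows of 5 Rab genes, Rab13, Rab15, Rab28, Rab34 and Rab40b, and in 12.3% of all 32851 windows. CACGTG was found in 5 windows of 5 Rab genes, Rab5a, Rab20, Rab21, Rab23 and Rab27a, and in 6.02% of all windows. Of the CATGTG genes, Rab34 was higher in Mc, Rab15, Rab28 and Rab40b were lower, and Rab13 was not called. Rab34 is printed as the only one higher in Mc, and Rab27a as the only melanosome gene with CACGTG. Each is on the plus strand with the hexamer in capitals, at chr11:78188177-78188426 and chr9:73063898-73064147.
Rab34: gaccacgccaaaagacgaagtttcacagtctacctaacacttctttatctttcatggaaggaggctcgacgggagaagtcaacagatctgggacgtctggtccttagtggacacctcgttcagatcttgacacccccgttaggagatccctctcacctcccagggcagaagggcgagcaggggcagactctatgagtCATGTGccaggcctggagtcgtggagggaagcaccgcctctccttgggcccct
Rab27a: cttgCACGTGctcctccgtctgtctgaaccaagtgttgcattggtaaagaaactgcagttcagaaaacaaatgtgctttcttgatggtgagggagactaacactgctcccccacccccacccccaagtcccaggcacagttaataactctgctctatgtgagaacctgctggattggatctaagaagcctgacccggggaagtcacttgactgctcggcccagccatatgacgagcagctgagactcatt
The hexamer begins 53 bases before the annotated start of Rab34. For Rab27a it begins 246 bases before an annotated start that lies inside the gene, downstream of its first one. These matches describe the letters of the windows, and no binding was measured.

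The arrays came from 2 chip lots, and the 14 differences called in Mc and the 17 of epithelium against mesenchyme kept their sign within both. Both Mx arrays were of the same lot, so that epithelium in the other lot was a single ORS array. With the lot as a block, Rab18 and Rab28 were no longer called in Mc (adjusted p = 0.0605 and 0.0638), nor were Rab7, Rab8b and Rab11b as lower in Mx, Rab11a as lower in ORS or Rab4a as higher in DF.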

How the data were processed

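Total RNA of the sorted cells was amplified in a single round and hybridized to MOE430A arrays. The deposited values were an intensity on a linear scale, the MAS5 signal that the authors scaled for each array. The methods describe scaling to a common target over all probe-sets, whereas the trimmed mean over all probe-sets differed between arrays, from 163.5 to 197.4, so rescaling over all probe-sets was tried. Here, 64 control probe-sets were left out, and 20380 probe-sets with 1 gene symbol named 12393 genes. The 8054 probe-sets that reached 200 on both arrays of some population were tested, on log2(signal + 50), by limma 3.58.1 in R 4.3.3, and the model held the 5 population means alone. P-values were adjusted by Benjamini-Hochberg over all tested probe-sets of a comparison, and a gene was called under 0.05. The residual degrees of freedom were 5 and those of the prior 7.46, and the residual SD had a median of 0.21. The smallest p of an exact two-sided permutation test is 0.333 between a pair of populations, 0.044 for 1 population against the other 4 and 0.029 for epithelium against mesenchyme, before any adjustment; the limma p-values lean instead on a spread shared among populations and among probe-sets. The number of arrays limits the precision. Replicates were described as independent preparations, and correlations of their deviations between populations ran from -0.05 to 0.34, the highest between Mx and ORS and between DF and DP (0.28). Of the 10 correlations, 5 were over 0.1. Replicate numbers were not used to pair samples in the main fit, and a replicate block was among the alternatives. Whether populations with the same replicate number shared a preparation was not tested. Genes named were those called in Mc, restricted to Mc, called and 2-fold apart elsewhere, the 5 flattest and 5 brightest members, the melanosome group, and up to 4 called genes of each regulator list. Rab3b, Rab8b, Rab11b, Rab20 and other members outside that rule were named after their values were seen. Members and lists were chosen with earlier results of these data known. The fit was tested on simulated data. Alternatives were other pseudocounts, signal bounds, scalings, probe-set rules, blocks and each array left out. Detection calls were not used here. Python 3.11.15, numpy 2.4.6, pandas 2.3.3 and matplotlib 3.10.9 were used.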

Additional observations from a re-analysis of the deposited data

How the results depend on the processing

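The differences followed across settings were those called in Mc, those called and at least 2-fold apart in another comparison, and those of Rab38 in Mc. None of them changed direction. They were chosen by their calls in the main fit, so this says little of smaller differences, which were not followed. The calls of Rab38, Rab34, Rab31, Rab25 and Rab7b in Mc held under every setting in which the gene was tested; Rab7b fell below the signal bound with the mean of all probe-sets. With 2 arrays a population, calls near the threshold depended on single arrays. The cause of the changes below was not tested, except that settings with a lower signal bound tested more genes.

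The number of Rab genes lower in Mc went from 8 to 5 with a pseudocount of 1, 4 on rescaling, 5 on quantile normalization, 5 with the mean of all probe-sets of a gene and 5 without DP in the reference; the number higher went from 6 to 10 both with a bound of 100 and with no filter. For ORS the number higher went from 1 to 2 with pseudocounts of 16 and 1 and with no filter, 3 with a bound of 100 and 0 with the mean of all probe-sets, which left 27 members tested. For DF the number higher went from 8 to 4 on rescaling and on quantile normalization, and the number lower from 1 to 4 under both and to 2 with a bound of 100, no filter or the mean of all probe-sets. With no filter, 18 genes were higher in DP, 24 lower in epithelium, 31 differing among populations and 28 even. With the mean of all probe-sets, 8 were lower in Mx, 1 lower in DP and 1 higher in epithelium. Rescaling made 2 genes melanocyte-restricted, Rab38 and Rab32. Of the genes of the 5 lists, 4 were lower with a bound of 100, 8 with no filter and 1 with the mean of all probe-sets.

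A replicate block raised the genes higher in ORS from 1 to 2, the second being Rab25, and moved no other count of members by over 1.5 times.

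When each array was left out in turn, even genes ranged from 14 to 15, melanocyte-restricted genes from 1 to 2 (Rab32 joined without Mc replicate 1) and genes differing among populations from 16 to 20. Higher and lower genes ranged from 3 to 7 and 3 to 10 in Mc, 4 to 4 and 8 to 15 in Mx, 1 to 2 and 3 to 9 in ORS, 2 to 10 and 1 to 2 in DF, 8 to 12 and 2 to 3 in DP, and 2 to 2 and 13 to 16 in epithelium. The genes of the 5 lists ranged from 15 to 19 higher and 1 to 4 lower. The lowest counts came without Mc replicate 2 (3 higher in Mc), Mc replicate 1 (3 lower in Mc), Mx replicate 1 (8 lower in Mx), ORS replicate 1 (3 lower in ORS) and DF replicate 1 (2 higher in DF). Genes higher in DF were also 5, 3, 4 and 4 without ORS replicate 1, DF replicate 2, DP replicate 1 and Mc replicate 1, genes lower in ORS 5 without ORS replicate 2, and genes lower in Mc 5 without DF replicate 1 or DP replicate 2 and 4 without Mc replicate 2.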
